A study of Mus musculus with 30 samples.

Results

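The genes of the mitochondrial ribosomal proteins were taken as every row of the deposited liver tables whose symbol is Mrpl or Mrps followed by a number and at most 1 letter. This gave 75 genes of 14555 in the series, and all 75 were listed at each age and passed the filter on low values in each comparison. By textbook assignment 48 of them make proteins of the large subunit and 26 of the small subunit of the mitochondrial ribosome, with Mrps18a and Mrps30 counted to the large subunit despite their symbols. Of these 74, 46 have a bacterial counterpart and 28 do not. The remaining gene, Mrps36, carries the name but its product is now placed in the 2-oxoglutarate dehydrogenase complex. Mrpl2, Mrpl33 and Mrpl53 were not analysed here.

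The samples were livers of CD-1 mice, which are an outbred stock, and the labels give each animal's exposure as either control or 500 ppb CdCl2 (cadmium chloride), which by the series' title was given in gestation. The groups were control and exposed females at postnatal day (PND) 1, with 4 libraries each, control and exposed females at PND21, with 3 each, and control and exposed females and males at PND42, with 4 each, which made 30 libraries. The labels name no further allele or agent for any group. Nothing in the labels says that the animals of a group came from separate litters, so p-values measure the spread between these libraries only.

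Mitochondrial ribosomes translate the messages of the mitochondrial genome, which encode core subunits of the respiratory chain. Their RNA is transcribed inside the organelle, while every ribosomal protein is encoded in the nucleus, made in the cytosol and imported. The liver, with many mitochondria per hepatocyte, depends on this translation for oxidative metabolism after birth.

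Promoters are shown first for 6 genes, each of which holds at least 1 of the motifs marked, which is not so for every gene of the family. Mrpl44 and Mrps22 fell most at PND42 in females, Mrpl12 had the highest level in PND1 controls, Mrpl32 also fell and holds the exact NRF1 palindrome, and Mrps21 and Mrpl27 rose most with age. Each line gives the 250 bases before the transcription start, 5′ to 3′ on the gene's strand, from RefSeq on GRCm38.p6. Capitals mark matches on either strand to motifs of factors known from nuclear genes of mitochondria: GCGC, any base and then TGCGC in 1 run (NRF1), CCGGAAG (ETS factors such as GABPA) and AAGATGG (YY1).
Mrpl44, chr1:79775768-79776017, plus strand: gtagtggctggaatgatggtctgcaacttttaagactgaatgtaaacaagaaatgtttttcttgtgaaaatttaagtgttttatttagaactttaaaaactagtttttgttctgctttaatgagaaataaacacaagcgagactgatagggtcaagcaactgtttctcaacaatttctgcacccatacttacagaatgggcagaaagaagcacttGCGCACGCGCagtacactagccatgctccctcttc
Mrps22, chr9:98601680-98601929, minus strand: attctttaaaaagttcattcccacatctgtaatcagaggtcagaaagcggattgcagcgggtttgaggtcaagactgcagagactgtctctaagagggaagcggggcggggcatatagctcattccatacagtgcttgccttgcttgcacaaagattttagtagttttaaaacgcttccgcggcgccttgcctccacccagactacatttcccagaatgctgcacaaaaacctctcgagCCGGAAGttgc
Mrpl12, chr11:120484387-120484636, plus strand: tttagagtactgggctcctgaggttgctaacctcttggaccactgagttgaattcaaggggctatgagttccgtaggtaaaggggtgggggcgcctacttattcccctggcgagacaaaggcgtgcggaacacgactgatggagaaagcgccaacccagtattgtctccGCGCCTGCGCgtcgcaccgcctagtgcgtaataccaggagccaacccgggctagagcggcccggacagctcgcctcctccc
Mrpl32, chr13:14613038-14613287, minus strand: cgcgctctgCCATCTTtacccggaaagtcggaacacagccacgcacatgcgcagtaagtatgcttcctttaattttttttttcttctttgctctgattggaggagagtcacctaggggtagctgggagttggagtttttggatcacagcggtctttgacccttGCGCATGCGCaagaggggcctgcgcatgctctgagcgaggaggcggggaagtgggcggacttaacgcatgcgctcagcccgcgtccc
Mrps21, chr3:95871515-95871764, minus strand: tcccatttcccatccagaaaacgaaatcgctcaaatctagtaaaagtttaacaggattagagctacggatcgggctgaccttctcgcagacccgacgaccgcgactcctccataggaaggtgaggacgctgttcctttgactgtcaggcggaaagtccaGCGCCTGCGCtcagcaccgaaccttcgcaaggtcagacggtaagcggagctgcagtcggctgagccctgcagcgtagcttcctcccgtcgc
Mrpl27, chr11:94653541-94653790, plus strand: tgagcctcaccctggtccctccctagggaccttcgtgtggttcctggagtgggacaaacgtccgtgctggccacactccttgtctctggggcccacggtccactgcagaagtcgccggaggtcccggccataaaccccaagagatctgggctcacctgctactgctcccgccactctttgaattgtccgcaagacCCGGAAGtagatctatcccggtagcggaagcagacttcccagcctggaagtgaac

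RefSeq promoters were matched by symbol for 66 of the 75 genes, which have 70 promoters between them. The ETS motif was in 17 of these 70 promoters (24.3%), against 6.91% of the 32851 promoters in the table and 8.76% of those with GC content in the same range. The NRF1 motif was in 10 (14.3%), against 3.74% of all promoters and 4.25% at like GC content, and its palindromic form, with A as the free base, was in 3 of these 10. The YY1 motif was in 6 (8.57%), against 4.49% of all. At least 1 of these motifs was in 30 of the 70 promoters (42.9%), against 14.1% of all promoters. The promoters of Mrps31, Mrps18b and Mrpl14 held none of them. Of the 42 promoters of genes that fell at PND42 in females, 9 held the ETS motif (21.4%) and 7 the NRF1 motif (16.7%), and of the 28 promoters of the other genes 8 (28.6%) and 3 (10.7%). These shares are descriptions, since members of a family were chosen by name and promoters of 1 gene overlap.

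Levels are given as normalised counts, which are reads divided by the authors' library factor, and between genes per kb of exon. Exon length is that of all annotated exons of a gene together, 8079 bases in Mrps10 and 1532 in Mrpl12. The order between genes therefore depends on the annotation. In PND1 controls the highest level was that of Mrpl12, the stalk protein that recruits translation factors to the large subunit, at 1627 ± 208 normalised counts per kb (SD, n = 4). Mrpl14 followed at 1040 ± 134 and Mrpl28 at 972 ± 133, both core proteins of the large subunit. Mrpl52, a large-subunit protein without a bacterial counterpart, had 921 ± 30.1 and Mrps28, of the small subunit, 921 ± 89.2, and from Mrpl14 down neighbours in this order differed by less than the larger of their SDs. The lowest levels in PND1 controls were 52.5 ± 9.02 for Mrpl23, 58.8 ± 3.71 for Mrps10, 59.9 ± 11.8 for Mrps25, 62.9 ± 6.35 for Mrps36 and 74.4 ± 5.08 for Mrpl32, and neighbours among the lowest 4 differed by less than the larger of their SDs. In PND42 control females Mrpl12 (1714 ± 170 per kb) and Mrpl14 (1584 ± 309) again led, now with Mrpl27 (1434 ± 426), which sits at the peptidyl transferase centre, and Mrps21 (1262 ± 199) behind them. Exons of 31 of the 75 genes share bases with another gene in the annotation, over 50% of the exon bases in Mrps34 and Mrps25. The sources do not say whether the counting used strand, so the levels of those genes are uncertain. The shared part is 30.5% of exon bases in Mrps18b and 7.66% in Mrpl44, while Mrps22 and Mrps31 share none.

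From birth to weaning, on the authors' scale, 31 of these genes rose in control livers and 10 fell, with 34 not called. This comparison set 3 PND21 against 4 PND1 control females, which the authors scaled together, and used limma on the deposited log2 values with Benjamini-Hochberg adjustment at 0.05. Over all 14233 genes tested 26.0% were higher and 26.9% lower at PND21, while of the ribosomal protein genes 41.3% were higher and 13.3% lower. The median log2 fold change was 0.37 for the 75 genes and 0.01 for all genes. Every PND21 control lay above every PND1 control in 27 of the 75 genes, against 3895 of all 14233 genes (27.4%). Every one lay below in 10 of the 75, against 3972 of all 14233 (27.9%). As a share of all reads, however, the family took 0.235% to 0.279% in PND1 controls and 0.177% to 0.229% in PND21 controls. Of the reads of nuclear genes it took 0.280% to 0.294% and 0.217% to 0.270%. Both shares were thus lower at PND21, without overlap.

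The rise with age was led by Mrps21, a small-subunit protein related to bacterial S21. Its normalised counts were 620, 558, 640 and 588 in the PND1 controls and 1438, 1463 and 1659 in the PND21 controls, so the groups did not overlap. Mrps21 rose by 1.34 ± 0.13 (log2 fold change ± SE, adjusted p = 2.15e-05, limma). Mrpl27 had 903, 566, 622 and 785 at PND1 and 1151, 1750 and 1781 at PND21, again without overlap, a log2 fold change of 1.11 (adjusted p = 0.00151, limma). Next came Mrpl14 (1.05), Mrpl38 (1.00), a large-subunit protein without bacterial counterpart, Mrpl4 (0.96) and the small-subunit proteins Mrps5 (0.94), Mrps33 (0.93) and Mrps11 (0.81), each called higher.

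The 10 genes that fell with age were led by Mrpl3, a core protein near the peptidyl transferase centre. Mrpl3 had 660, 455, 503 and 638 normalised counts at PND1 and 287, 352 and 327 at PND21, with no overlap, and fell by 0.79 on the log2 scale (adjusted p = 0.00375, limma). The other genes with the lowest values were Mrpl28 (-0.69), Mrps12 (-0.67), whose product forms part of the decoding centre, Mrps9 (-0.66), Mrpl50 (-0.66), Mrpl48 (-0.66) and Mrpl9 (-0.51). Mrpl12 also fell, by 0.46 (adjusted p = 0.0461, limma), with overlapping groups. Mrpl44 had -0.54 (adjusted p = 0.0559, limma), without a call. The 3 relatives of bacterial S18 were not called: Mrps18a had -0.06, Mrps18b -0.49 and Mrps18c -0.40. Mrps36 had 0.54 (adjusted p = 0.0808, limma).

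Both subunits were on both sides of this change: 19 large-subunit genes rose and 7 fell, and 12 small-subunit genes rose and 3 fell. In each library the large-subunit mean exceeded the small-subunit mean, by 0.37 to 0.40 on the log2 scale in PND1 controls and by 0.22 to 0.28 in PND21 controls. Beside the ribosome, 9 of 24 genes for its assembly and rRNA modification rose and 4 fell, and 3 of 13 translation factor genes rose and 2 fell. Cytosolic ribosomal protein genes, in contrast, had 55 of 80 lower and 1 higher, with a median of -0.81.

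The direction of the age comparison depends on the scaling. With libraries scaled by total reads, which moves the median of all genes by -0.51, 6 of the 75 genes were higher and 26 lower (all genes 1721 higher and 6586 lower, against 3701 and 3826). Each of the 3 PND21 controls moved the counts. Without PND21 control 3, 10 genes were higher and 8 lower, and the 13.3% higher lay below the 20.8% of all genes. Without PND21 control 2 it was 16 and 9, with 21.3% higher against 23.0% of all genes. Without PND21 control 1 it was 40 and 5, with 53.3% higher against 24.0%, and without PND1 control 3 or 4 6 fell, with 25 and 27 higher. Of the genes named above, Mrpl12 lost its call without any 1 of 6 of the 7 libraries (PND1 control 2 excepted), Mrpl48 without any of 4 (PND1 control 3 or 4, PND21 control 1 or 2), Mrpl50 without any of 3 (PND1 control 3 or 4, PND21 control 1), Mrps33 without PND21 control 2 or 3 and Mrps11 without PND21 control 3. Markers of blood formation, which takes place in the newborn liver, moved with age: 6 erythroid genes summed to between 211099 and 343500 normalised counts at PND1 and between 25919 and 80294 at PND21, in controls. Those of 5 neutrophil genes were 31216 to 37806 and 201 to 321, and those of 4 megakaryocyte genes 7596 to 10137 and 441 to 640. The sums of 4 B cell genes did not overlap either (1350 to 1761 and 91.9 to 148.2), and those of 6 hepatocyte genes were higher at PND21, at 1113436 to 1948754 against 2103627 to 4481911, again without overlap. Fewer cells of a type and less RNA per cell cannot be told apart in these bulk samples, and the part of these markers in the result was not tested.

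**Figure D1:**
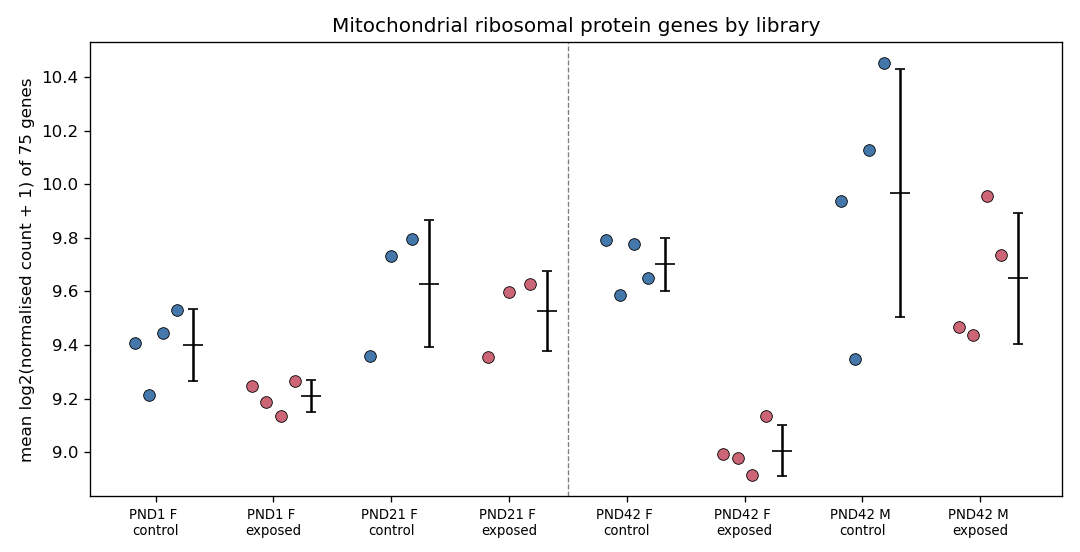
Mean log2(normalised count + 1) over the 75 genes in each of the 30 libraries (points, blue control and red exposed), by group, with the mean and SD of each group beside its points. The dashed line separates tables that were scaled apart, so levels left and right of it are not compared. The 4 exposed females at PND42 sit between 8.91 and 9.14, below the 4 controls at 9.59 to 9.79.

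At PND42, exposed females had less message for most of the family. Of the 75 genes 45 fell, 0 rose and 30 were not called, in a limma fit of the 4 PND42 groups with adjustment over all 13091 genes. Over all genes 21.4% were lower and 18.9% higher. The median log2 fold change was -0.65 for the family and 0.00 for all genes. Of the 75 means 73 were lower, a count given without the share over all genes. In 54 of the 75 genes every exposed female lay below every control female, against 3082 of all 13091 genes (23.5%). The family took 0.235% to 0.263% of the reads of control females and 0.146% to 0.192% of those of exposed females. Of the reads of nuclear genes it took 0.248% to 0.285% and 0.221% to 0.248%, and these ranges overlap slightly.

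Mrpl44, a large-subunit protein with a ribonuclease III fold, was the lowest. It had 506, 592, 534 and 533 normalised counts in control females and 174, 150, 150 and 162 in the exposed. The groups are far apart, and Mrpl44 fell by 1.76 ± 0.24 on the log2 scale (SE, adjusted p = 4.65e-05, limma). Mrps22, a small-subunit protein without a bacterial counterpart, had 578, 644, 558 and 610 in control and 143, 192, 168 and 212 in exposed females, with no overlap, a log2 fold change of -1.75 ± 0.23 (adjusted p = 4.41e-05, limma). Mrps31, also of the small subunit and without a bacterial counterpart, had 904, 1030, 839 and 879 against 311, 348, 447 and 384. Its log2 fold change was -1.30 ± 0.17 (adjusted p = 3.95e-05, limma), the smallest p-value of the family.

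The other genes with the largest falls were Mrpl34 (-1.66), Mrpl46 (-1.51), Mrpl50 (-1.29) and, of the small subunit, Mrps16 (-1.35) and Mrps23 (-1.24). Mrps12, of the decoding centre, fell by 1.23 (adjusted p = 0.00113, limma). The S18 relatives fell alike: Mrps18a by 1.23, Mrps18b by 1.10 and Mrps18c by 1.11, where the first is a large-subunit and the others are small-subunit proteins. Mrps18b had 576, 515, 429 and 626 normalised counts in control and 189, 283, 247 and 279 in exposed females, so its groups did not overlap either. Mrpl12, the most abundant per length, had 2265, 2762, 2862 and 2612 in control and 1465, 1278, 1255 and 1409 in exposed females and fell by 0.95 (adjusted p = 0.0124, limma).

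Among the 30 genes not called, Mrps15 had 1232, 917, 1243 and 922 in control and 1221, 1008, 896 and 1138 in exposed females, with full overlap and a log2 fold change of -0.01 ± 0.18. Mrps15 flips sign under total-read scaling, trimmed-mean scaling and nuclear-gene scaling. Mrpl14 (-0.03), Mrps21 (-0.11) and Mrps28 (0.05) were as close to no difference, and the sign of Mrpl14 flips under total-read and nuclear-gene scaling and that of Mrps21 under nuclear-gene scaling. Mrpl54, of the large subunit, had the highest value at 0.26 ± 0.25 (adjusted p = 0.434, limma), from 572, 278, 703 and 373 in control to 543, 532, 522 and 571 in exposed females, where the controls spread on both sides of the exposed. Mrpl4, Mrpl45 and Mrpl52 also lay between -0.16 and -0.10. Mrpl18 had 1238, 1253, 1543 and 1731 in control but 513, 2344, 518 and 1384 in exposed females, which lie on both sides of the controls. Mrps36, no longer counted to the ribosome, had 67.9, 95.5, 120 and 95.3 against 66.2, 74.3, 73.4 and 101, and a value of -0.25 (adjusted p = 0.475, limma).

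By role, 31 of 48 large-subunit and 14 of 26 small-subunit genes fell, with medians of -0.64 and -0.68. Genes with a bacterial counterpart fell in 31 of 46 (median -0.68) and those without in 14 of 28 (median -0.54). The lowest 2 genes, Mrpl44 and Mrps22, are both of the kind without a counterpart, and so is Mrpl54 with the highest value, so this kind spans the whole range. The large-subunit mean stayed above the small-subunit mean in every PND42 female, by 0.22 to 0.31 on the log2 scale in control and 0.21 to 0.41 in exposed, which overlap.

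**Figure D2:**
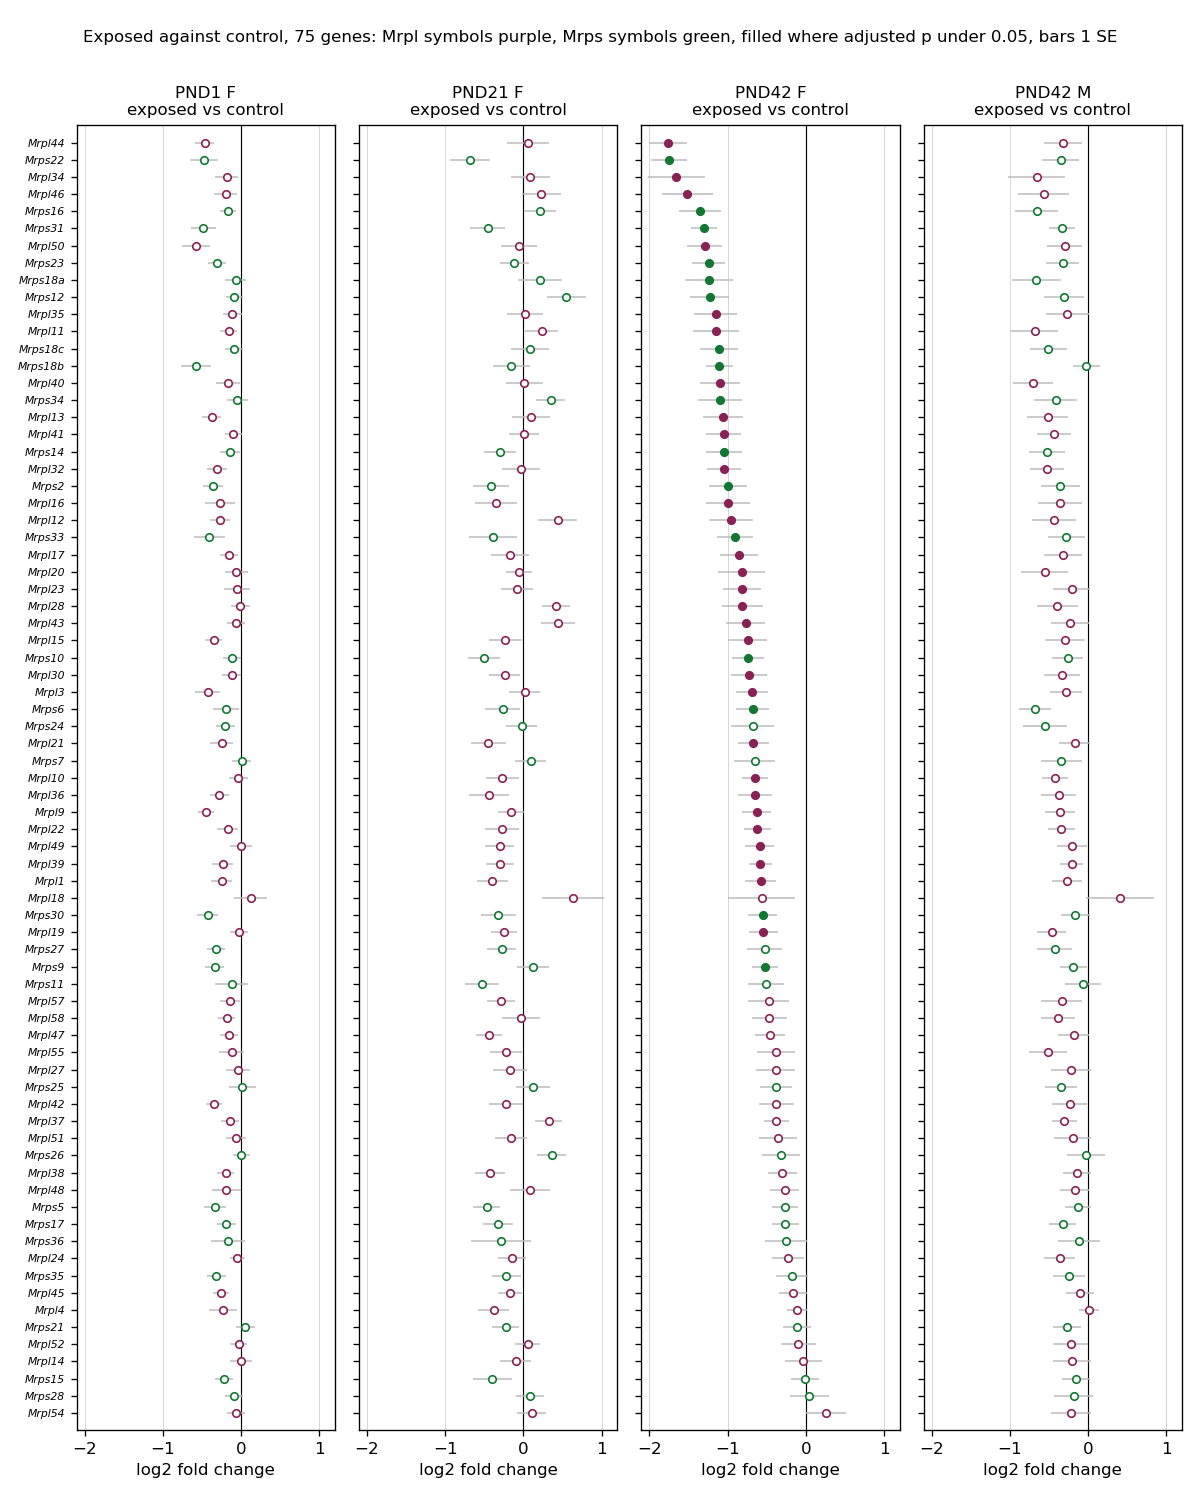
Log2 fold change of exposed over control for each of the 75 genes in the 4 comparisons, ordered by the value in PND42 females, with bars of 1 SE. Mrpl symbols are purple and Mrps symbols green, and a filled point has an adjusted p under 0.05 (limma). The filled points are the 45 genes that fell in PND42 females, and none is filled in the other 3 panels.

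The other parts of mitochondrial translation moved less evenly in the same females. Of 24 genes for ribosome assembly and rRNA modification 8 fell and 2 rose (median -0.18), with Ngrn, which acts in large-subunit assembly, at -1.26 and Ddx28, an assembly helicase, at -0.93. Of 13 translation factor genes 6 fell and 1 rose (median -0.19), among them the elongation factors Gfm1 (-1.48) and Tsfm (-1.31). Of 20 genes for tRNA charging 6 fell and 4 rose (median -0.02), with Yars2 at -1.27 and Iars2 at -0.82. Of 5 ribosomal proteins under other symbols 1 fell, Chchd1 (-1.07), and Aurkaip1 had -0.36 without a call. Of 13 genes for mitochondrial DNA upkeep and transcription 3 fell and 5 rose: Tfam, which packages the genome, fell by 0.85 and Polg2, the accessory polymerase subunit, rose by 0.72. Of 9 nuclear regulators 2 rose and 1 fell, with Nrf1 at 0.89 and Yy1 at -0.64. The family's 45 of 75 stood beside 52 of 80 cytosolic ribosomal protein genes that fell (median -0.94). The RNAs that the organelle itself makes went the other way: all 7 listed mitochondrially encoded protein genes rose, with a median of 1.68, and both ribosomal RNAs rose, with a median of 1.96.

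Measures of the whole library moved with this fall. Genes with over 300 kb of intron (338 at PND42) had a mean log2 level of 7.24 to 7.66 in controls against 8.76 to 9.12 in the exposed females, mitochondrially encoded reads were 5.25% to 12.8% and 22.2% to 35.5%, and the mean of the nuclear RNAs Malat1 and Neat1 was 13.0 to 14.5 and 15.5 to 15.9. Each measure separated the groups fully (exact permutation test over libraries, two-sided, p = 0.0286, the smallest that 4 against 4 can give, adjusted p = 0.19 over 20 tests). Of tissue markers, the summed normalised counts of 6 hepatocyte genes were 2718562 to 3774291 in controls and 1179244 to 2193602 in the exposed, those of 5 cholangiocyte genes 1035 to 2091 and 358 to 656, and those of 5 stellate cell genes 8905 to 11452 and 7007 to 8404, each without overlap. The part of these measures in the result was not tested. With the long-intron mean as a covariate, an alternative chosen after seeing the data, 0 of the 75 genes were called and their median was 0.22, and over all genes 5 were higher and 1 lower, against 2468 and 2801. Because this measure does not overlap between control and exposed females, it and the exposure cannot be told apart.

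The count of calls depends on the scaling. With libraries scaled on nuclear genes only, 25 of the 75 genes fell and 1 rose, Mrpl54 (0.65), their median was -0.26, and the median of all genes moved by 0.39, with 4251 genes higher and 1470 lower against 2468 and 2801. Leaving out any 1 of the 8 females left 36 to 45 calls, all among the 45 genes. The 45 lost no gene under voom weights or total-read scaling, and a fit of the 8 females alone called 55. Without the unnumbered control female, whose column is tied to its group only, 41 fell. Apart from nuclear-gene scaling, these counts stand without the share over all genes and are not read as results about the family.

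**Figure D3:**
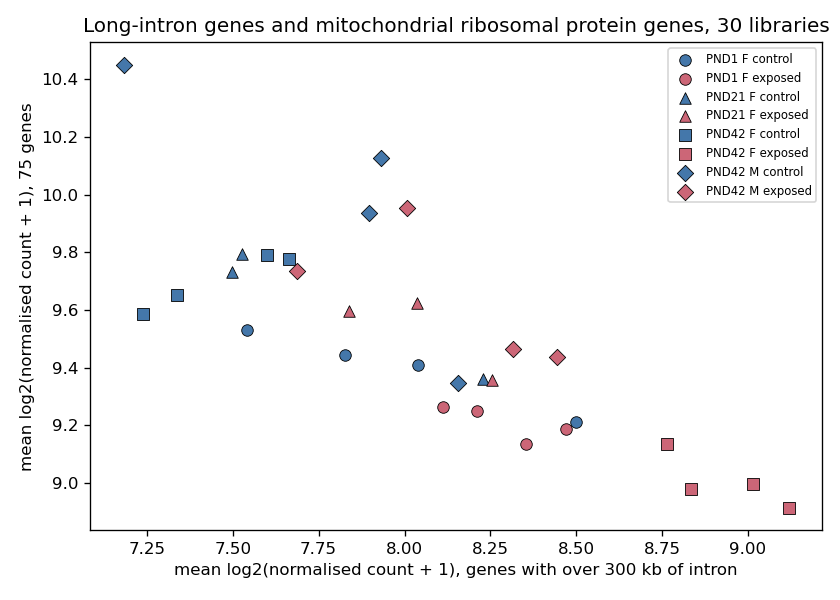
Mean log2 level of the 75 genes (vertical) against that of genes with over 300 kb of intron (horizontal) in 30 libraries, with symbols for age and sex and colours for exposure. Exposed females at PND42 lie apart at the lower right, with long-intron means of 8.76 to 9.12, and levels across the PND42 and the younger tables were scaled apart.

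In 6 of the 8 groups the library with the highest long-intron mean had the lowest mean of the 75 genes, the exceptions being PND1 exposed and PND42 control females. Across the 75 genes the log2 fold change at PND42 in females had a Spearman correlation of 0.20 with intron length (0.35 over 12604 genes). Genes with longer introns thus tended to the higher values, not to the larger falls. This is a description without a test, since genes share libraries.

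Age and exposure were compared gene by gene from separate libraries. The labels do not establish that the animals differ, since the column of the unnumbered PND42 control female carries the tag of PND21 control 1. Of the 31 genes that rose from PND1 to PND21, 10 fell in exposed PND42 females (median -0.46). Of the 10 that fell with age, 8 fell (median -0.73), and of the 34 without an age call 27 fell (median -1.02). Over the 75 genes the log2 fold changes had a Spearman correlation of 0.48 (Pearson 0.46), against 0.09 over the 12620 genes tested in both. Without both libraries of that tag the Spearman correlation over the 75 genes was 0.41. The PND42 female values of the 75 genes also had a Spearman correlation of 0.40 with their mean log2 level over the PND42 libraries. Mrps21, Mrpl14 and Mrps15, which rose with age, were at the top of the PND42 order, while Mrps22, which did not pass with age (0.51, adjusted p = 0.0985, limma), was near the bottom. These correlations carry no test, since within each comparison the genes share libraries.

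**Figure D4:**
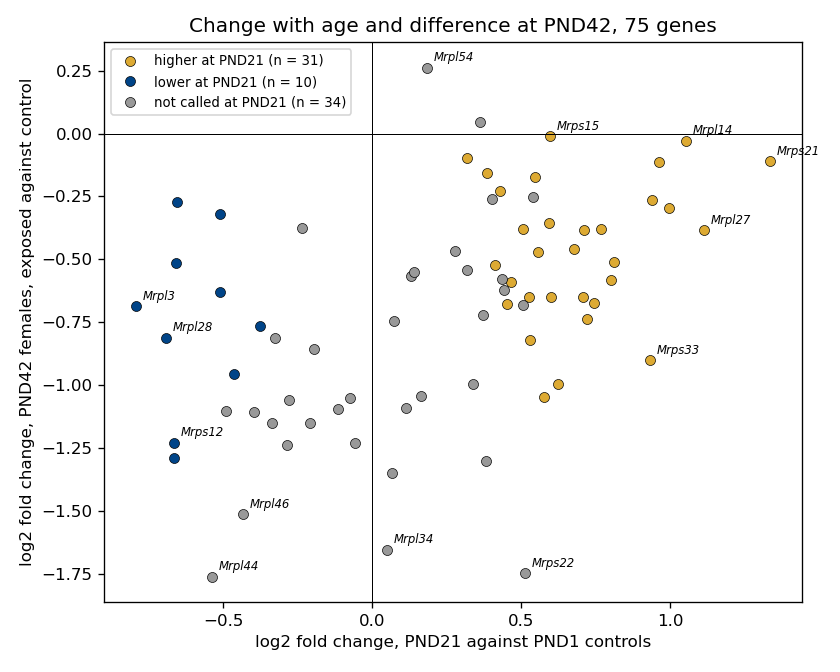
Log2 fold change of PND21 over PND1 controls (horizontal) against that of exposed over control females at PND42 (vertical) for the 75 genes, coloured by the call with age. The 31 genes higher at PND21 lie between -1.05 and -0.01 on the vertical axis.

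In PND42 males no gene of the family passed, with 0 called among 13091 genes (0.0%) by limma and also by voom. Of the 75 means 73 were lower, with a median of -0.32 against -0.03 for all genes. An unadjusted p under 0.05 was found for 11. Both this count and that of lower means are given without the share over all genes. The median was -0.13 with the erythroid mean and -0.11 with the long-intron mean as a covariate, with 1 unadjusted p under 0.05 each. The sums of 4 B cell genes did not overlap between the male groups (20.7 to 137 in control, 174 to 223 in exposed), and their part was not tested. In none of the 75 did every exposed male lie below every control male, against 0.833% of all genes. The lowest values were those of Mrpl40 (-0.71), Mrpl11 (-0.69) and Mrps6 (-0.68), with adjusted p = 0.622 for each (limma), and the highest that of Mrpl18 (0.40). Mrpl10 and Mrpl19 shared that adjusted p with -0.42 and -0.47. Of the genes followed in each comparison, Mrps18a had -0.66, Mrps18c -0.51, Mrpl12 -0.44, Mrps12 -0.31, Mrps36 -0.11 and Mrps18b -0.03, the last flipping sign under trimmed-mean and total-read scaling.

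Single male libraries moved the family's median. The unnumbered control male a had a family mean of 9.35 and 24.8% mitochondrially encoded reads, against 9.94 to 10.5 and 9.03% to 18.1% in the other 3 control males. Without it the median of the family was -0.52, and 54 of its genes had an unadjusted p under 0.05. That count is given without the share over all genes and is not read as a result about the family. The smallest adjusted p of the family was 0.0546 (limma), still 0 were called, and over all genes 27 were. Without unnumbered control male c, which had the highest family mean, the median was -0.15, and without exposed male 3 it was -0.42.

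The difference between the sexes in the exposure effect passed for 4 genes of the family, tested as an interaction in the same limma fit. Over all genes 4.07% had a higher and 3.84% a lower value in males minus females, so 4 of 75 lies near that background. The median of the family was 0.38, and 0.15 without unnumbered control male a. With total-read scaling the same number of the family was called, and all genes had 551 higher and 228 lower, against 533 and 503. Mrpl44 had a male value of -0.32 against -1.76 in females, a difference of 1.44 ± 0.34 (adjusted p = 0.0176, limma). In males it had 445, 286, 400 and 720 normalised counts in control and 284, 263, 466 and 432 in exposed, which overlap.

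Mrps22 had 469, 340, 604 and 820 in control and 382, 303, 517 and 498 in exposed males, again overlapping. Its value was -0.35 in males and the difference 1.40 (adjusted p = 0.019, limma). Mrps18b had 356, 443, 359 and 430 in control and 372, 386, 349 and 453 in exposed males, which overlap, and a difference of 1.08 (adjusted p = 0.0153, limma). Mrps31 had 1037, 790, 1053 and 1040 in control and 642, 635, 968 and 900 in exposed males, a value of -0.33 and a difference of 0.97 (adjusted p = 0.023, limma). Mrps31 lost its call when 1 of 4 libraries was left out, control female 3, exposed female 1 or 2, or exposed male 3 (adjusted p from 0.0509 to 0.0547, limma), and without unnumbered control male c 10 genes of the family were called, where all genes had 978 higher and 951 lower. The differences for Mrps12 (0.92), Mrps18c (0.60), Mrps18a (0.57), Mrpl12 (0.52) and Mrps36 (0.14) were not called.

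**Figure D5:**
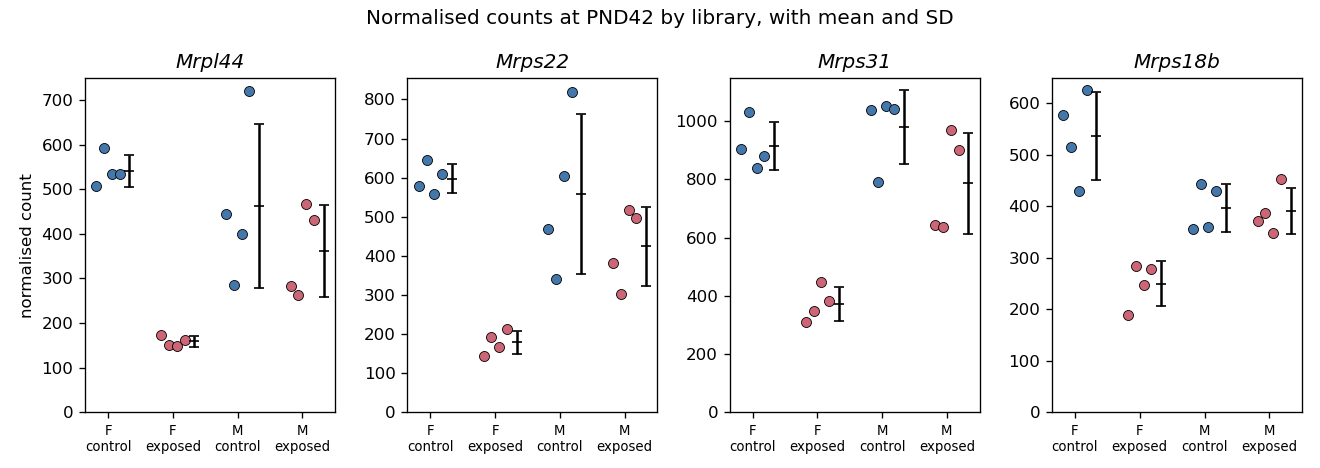
Normalised counts of Mrpl44, Mrps22, Mrps31 and Mrps18b in each PND42 library (points) with the mean and SD of each group, the vertical axis starting at 0. Exposed females lie below control females in all 4 genes, with Mrpl44 at 150 to 174, and the male groups overlap.

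Between control males and control females 3 genes of the family were higher in males and 0 lower, against 4.58% higher and 2.35% lower over all genes. The median was 0.31 for the 75 genes and -0.02 for all. The sums of 5 Kupffer cell genes did not overlap between the sexes (4831 to 8223 in females, 2791 to 3760 in males). Nor did the mean log2 level of the 3 erythroid genes listed at PND42 (10.44 to 10.81 in females, 10.84 to 12.93 in males). The summed counts of these erythroid genes did overlap (5180 to 6998 and 6713 to 23821). The part of either marker list was not tested. Mrpl54 had 862, 619, 1098 and 1367 normalised counts in males against 572, 278, 703 and 373 in females, a log2 fold change of 1.06 (adjusted p = 0.0187, limma). Mrps21 had 1529, 1086, 1949 and 2034 against 1101, 785, 1009 and 837 (0.79, adjusted p = 0.0137, limma), and of these 3 only Mrps15, at 1677, 1272, 1980 and 1776 against 1232, 917, 1243 and 922, did not overlap between the sexes (0.63, adjusted p = 0.042, limma).

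The lowest value was that of Mrpl3 (-0.45), followed by Mrps18b (-0.43), both not called, and Mrps12 (-0.28), Mrps36 (0.03), Mrpl12 (0.08), Mrps18c (0.33) and Mrps18a (0.39) lay between. These counts rest on single libraries: without unnumbered control male a 31 of the 75 genes were higher in males (median 0.54), where all genes had 1201 higher and 778 lower, without control female 2 or 4 6 were, and without the unnumbered control female or unnumbered control male c 1 was. Without control female 3 or unnumbered control male b limma called 0, with 16 and 14 genes at an unadjusted p under 0.05, counts given without the share over all genes. With total-read scaling, which moves the median of all genes by -0.37, 1 gene was higher and 5 lower (all genes 235 and 1875, against 600 and 307).

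In newborn females no gene of the family passed, with 0 of 14059 genes called (0.0%). The median was -0.17 against -0.01 for all genes. Of the 75 means 69 were lower in exposed pups, and 20 of the 75 genes had an unadjusted p under 0.05. Both counts stand without the share over all genes and are not read as results about the family. In 12 genes (16.0%) every exposed library lay below every control library, against 4.82% of all genes. The lowest values were in Mrpl50 (-0.58) and Mrps18b (-0.58), and the smallest p-values in Mrpl9, Mrpl44, Mrpl50 and Mrpl15.

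Mrpl9, related to bacterial L9, had 1370, 1094, 1167 and 1253 normalised counts in control and 919, 890, 903 and 860 in exposed pups. The groups did not overlap, with a log2 fold change of -0.45 ± 0.11 and an adjusted p of 0.244 (limma). In the authors' deposited table Mrpl9 had a log2 fold change of -0.45 and an adjusted p of 0.0224, the only gene of the family under 0.05 there, with none given for 17 genes. The share over all genes in that table is not given here. Mrpl44 had 478, 382, 460 and 488 in control and 315, 335, 322 and 330 in exposed pups (-0.47, adjusted p = 0.244, limma), without overlap. Mrpl15 had -0.35, Mrps31 -0.48 and Mrps22 -0.47, the 2 last genes being among the lowest at PND42 as well.

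Of the genes followed in each comparison Mrpl12 had -0.27, Mrps36 -0.17, Mrps18c -0.09, Mrps12 -0.09 and Mrps18a -0.07, and the highest value was that of Mrpl18 (0.13). Across the 75 genes the PND1 and PND42 female values had a Spearman correlation of 0.27, against 0.61 over all genes tested in both. That of the PND21 and PND42 female values went the other way over the 75 genes, at -0.21, against 0.18 over all genes. Of the 75 genes 67 were lower in both, a count given without the share over all genes. With the long-intron mean as a covariate the median was -0.06. Of the marker lists, that of 5 genes of the sinusoidal endothelium separated the groups, with sums of 6756 to 7680 in control and 8606 to 9744 in exposed pups, and its part in the result was not tested. The measures of the whole library overlapped at this age, with long-intron means of 7.54 to 8.50 in control and 8.11 to 8.47 in exposed pups.

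At PND21 fewer genes of the family shared a direction. None of the 75 genes was called, against 0.036% of 13886 genes, by limma or voom, and 27 means were higher and 48 lower, with a median of -0.16 against -0.01 for all genes. The counts of means are given without the share over all genes. With total-read scaling, which moves the median of all genes by 0.24, the median of the family was 0.08, and with the long-intron mean as a covariate 0.01. On the authors' scale 6 genes had an unadjusted p under 0.05, a count given without the share over all genes. Leaving out 1 library gave medians from -0.26 to -0.05. In 8 genes every exposed library lay below every control library (10.7%), against 8.62% of all genes. Mrps22 had 301, 497 and 507 normalised counts in control and 227, 321 and 250 in exposed females, the lowest value of the family at -0.68 (adjusted p = 0.478, limma), and its groups overlapped. Mrps31 had -0.46 and Mrps5 -0.47. The highest value was that of Mrpl18 (0.64), with 1005, 1112 and 2071 in control and 2817, 2647 and 1167 in exposed females, which overlap as well.

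Mrps12 (0.55) and Mrpl12 (0.44), which fell at PND42, were on the higher side here without a call. Mrps18a had 0.22, Mrps18c 0.09, Mrps18b -0.15 and Mrps36 -0.29, and Mrps18b flips sign under total-read scaling. The difference between the PND21 and the PND1 effect was called for none of the 75 genes, against 0.014% of 14259 genes, with a median of 0.09. The genes of lowest p in that difference were Mrpl12 (0.70), Mrpl37 (0.46), Mrps12 (0.64) and Mrpl43 (0.51), all with an adjusted p of at least 0.46 (limma). Mrps18b had 0.42, Mrps18a 0.28, Mrps18c 0.18 and Mrps36 -0.11. A lower mean in exposed animals in each of the 4 exposure comparisons, a count of means and not of calls, was seen for 45 genes. These are not the same 45 genes as those called at PND42 in females. The share over all genes is not given, so this count is not read as a result about the family.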

How the data were processed

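Liver total RNA was read as single-end reads, per the labels' protocols. Per the submitters' processing notes the tools were FastQC, STAR and featureCounts and the build mm10. Versions and the strand setting are not given in the sources used here. For every gene and library the authors deposited a log2 value, which proved to be log2 of (reads divided by a library factor, plus 1): 100% of values gave whole reads within 0.1. The deposited signal column, the mean normalised count, shows that PND1 and PND21 (14 libraries) were scaled together and PND42 (16) apart, so levels were tested within these sets only. The tables of the authors for PND1 and PND21 also hold their log2 fold changes with errors, a test score and p-values. Their tool is not stated, and these values were used only where named. Read totals in M were 22.0 to 28.3 at PND21, 24.4 to 29.6 at PND1 and 27.7 to 40.1 at PND42, and the column names carry 1 lane tag for PND1 and PND21 and another for PND42.

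Since the unit was log2, limma 3.58.1 (R 4.3.3) with trend and robust empirical Bayes was fitted in place of the count models planned for raw counts, on genes with at least 10 normalised counts in as many libraries as the smallest group, two-sided, with Benjamini-Hochberg adjustment over all genes at 0.05. The fit was tested on simulated data. Fold changes are on the log2(value + 1) scale. Counts of genes at an unadjusted p under 0.05 are given without the share over all genes and are not read as results about the family. The same holds for counts of lower means, and for calls under alternatives where no count over all genes stands beside them. The exposure comparison at PND1 and at PND21 used that age alone, and the PND42 comparisons shared 1 fit of 4 groups. Among PND42 controls, 1 female and 3 male columns (called unnumbered, males a to c) could be tied to their group only, and the tag of that female column is the one the labels give to a PND21 control. Positions and lengths are from GENCODE vM21 and promoters from RefSeq (no proteins or genome were used here). The members and gene lists were chosen with earlier results of these data known. The rule for named genes took, in each comparison, the 8 genes with the highest and the 8 with the lowest log2 fold change, the 4 of lowest p (these alone in the interactions), all called genes where 10 or fewer were called, and Mrpl12, Mrps12, Mrps18a to Mrps18c and Mrps36. It also took the 5 highest and lowest levels in PND1 controls and the 2 genes of lowest p of each other list. Some genes it took are given only within counts and plots. Mrps22, Mrps31, Mrpl44 and Mrpl18 were followed beyond it, chosen after their values were seen.

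Correlations of deviations between same-numbered exposed and control libraries were -0.10 to 0.12 at PND1, -0.02 to 0.32 at PND21 and -0.09 to 0.03 in PND42 females. So few libraries cannot show whether replicate numbers pair the animals, and the main fits did not pair them. Alternatives were other filters, scalings, pseudocounts, limma voom, other fits, covariates, the replicate block and leaving out each library.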

Additional observations from a re-analysis of the deposited data

Results flagged for a closer look

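The exposure effect differed between the sexes at PND42 for Mrpl44 (males minus females 1.44, adjusted p = 0.0176), Mrps22 (1.40, adjusted p = 0.019), Mrps18b (1.08, adjusted p = 0.0153) and Mrps31 (0.97, adjusted p = 0.023) by the interaction in the limma fit across all genes. Over all genes 4.07% were called higher and 3.84% lower in this difference, so 4 of 75 lies near that background. In 1 of the 4 PND1 control females, replicate 1, the large-subunit mean exceeded the small-subunit mean by 0.404 on the log2 scale, far from the 0.365 to 0.369 of the other 3. Of the genes given by library, Mrpl3 had 511 normalised counts in the unnumbered control male c, against 335 to 349 in the other 3 control males. Mrps31 had 790 in the unnumbered control male a, against 1037 to 1053 in the others, and Mrpl54 had 687 in exposed male 4, against 843 to 873 in the others. Single libraries stood apart in this way in 16 of 450 sets of 4 libraries over the 75 genes (3.56%), where chance flags about 1 in 20.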

How the results depend on the processing

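The calls at PND42 in females kept their direction and count within 1.5 times under the filters, pseudocounts, trimmed-mean and total-read scaling, voom and the fit without trend. The erythroid covariate gave a median of -0.52. Scaling on nuclear genes gave 1 gene higher, 25 lower and a median of -0.26, and turned Mrps15 (0.38), Mrpl14 (0.36), Mrps21 (0.28) and Mrps36 (0.13). The long-intron covariate left 0 genes lower with a median of 0.22, and turned Mrpl12 (0.74), Mrpl46 (0.48), Mrpl34 (0.42), Mrpl14 (0.37), Mrps21 (0.26), Mrps15 (0.22), Mrpl50 (0.084) and Mrps18c (0.0095) in females, Mrps18b (0.061) and Mrpl44 (0.0031) in males, and Mrps18a (0.024) at PND1, where the median was -0.058. In the age comparison it gave 16 genes lower. The erythroid covariate turned Mrpl14 (0.15), Mrps15 (0.079) and Mrps21 (0.0012) in females and Mrps36 (0.037) in males. Total-read scaling turned Mrps15 (0.038) and Mrpl14 (0.019) in females, Mrps18b in males (0.077) and at PND21 (0.0822), where the median became 0.0820, and Mrpl12 (-0.29), Mrps36 (-0.33) and Mrps18c (-0.036) between the sexes, with 1 gene higher, 5 lower and a median of -0.063. With it the age comparison had 6 genes higher, 26 lower, a median of -0.14 and Mrps22 at -0.0022, and the PND21 minus PND1 difference a median of 0.27, with Mrps36 at 0.068. Trimmed-mean scaling turned Mrps15 in females (0.0063) and Mrps18b in males (0.0052). The cause was not tested for any of these. With the replicate block, 47 genes fell in PND42 females (42 of the 45) with Mrps28 at -0.12, and 27 rose and 5 fell with age, with Mrps18a at 0.0068, and the block changed the count of calls by over 1.5 times nowhere else. The counts under the block are given without the share over all genes. No paired analysis was possible because of the columns' numbering in 1 comparison, that of PND42 males, where 3 controls carry no number.

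Leaving out each library in turn gave 10 to 40 genes higher and 5 to 13 lower with age, 0 to 31 higher between the sexes, 3 to 10 in the sex interaction, and a median of -0.083 to 0.15 for the PND21 minus PND1 difference. Values that crossed 0 were Mrps18a (-0.15 to 0.0056) and Mrpl18 (-0.016 to 0.26) at PND1, Mrps18a (-0.017 to 0.47), Mrps18b (-0.34 to 0.028), Mrps18c (-0.11 to 0.30) and Mrps36 (-0.50 to 0.14) at PND21, Mrps15 (-0.084 to 0.069), Mrpl14 (-0.17 to 0.082) and Mrps28 (-0.14 to 0.24) in PND42 females, and Mrps18b (-0.10 to 0.030) and Mrps36 (-0.31 to 0.016) in males. Others were Mrpl12 (-0.21 to 0.42) and Mrps36 (-0.12 to 0.22) between the sexes, Mrps18a with age (-0.23 to 0.14), Mrps36 in the sex interaction (-0.053 to 0.29), and Mrps18c (-0.015 to 0.39) and Mrps36 (-0.33 to 0.31) in the PND21 minus PND1 difference. Groups of 3 or 4 libraries limit the precision of all these estimates.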
